A study of Bubalus bubalis with 6 samples.

Results

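The TGF-beta and SMAD host genes are genes annotated with the TGF-beta signaling pathway from which a circular RNA (circRNA) was read in the venous blood of Jianghuai buffaloes. A host gene was taken when its circRNAs carried KEGG's TGF-beta signaling pathway in the deposited table, and ENG, which encodes the TGF-beta co-receptor endoglin, was added by name. Genes whose symbol starts with MAP and genes that KEGG also places in ubiquitin-mediated proteolysis were left out, which removed 6 genes and their 31 circRNAs. The rule kept 39 of 8611 host genes and 252 of 57308 circRNAs. It used no read count, but the members were chosen with earlier results of these data known.

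Jugular blood came from 3 control buffaloes (C-Buffalo) and 3 pregnant buffaloes (P-Buffalo), each animal giving 1 library. All 6 cows were Jianghuai buffaloes aged 3 to 5 years whose estrus was brought into step with prostaglandin analogues. P-Buffalo were inseminated, bled on day 25 and read as pregnant by ultrasound on day 60, whereas C-Buffalo had no insemination, and its effect and that of pregnancy cannot be told apart. Libraries were made from RNA depleted of ribosomal RNA and treated with RNase R, an enzyme that digests linear RNA, and the table gives the back-splice reads of each circRNA, that is, reads across the junction where the end of a circle joins its start. Blood is a mixture, so fewer cells of a type and less RNA per cell cannot be told apart.

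TGF-beta ligands, activins and bone morphogenetic proteins bind type II receptors, which switch on type I receptors. The type I receptors phosphorylate receptor-regulated SMAD proteins, which join SMAD4, enter the nucleus and act on transcription with cofactors such as CREBBP and EP300, while inhibitory SMADs and pathways such as RHOA and ROCK1 act beside this line. In blood the pathway is known for restraining lymphocytes, and platelets are a large store of TGFB1. A circRNA count reports circles made from a gene and is not a measure of its mRNA or protein.

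The libraries held 815851 to 1298753 back-splice reads, so a count of 3 reads corresponded to 2.31 to 3.68 CPM, the count scaled to a common library total, before TMM scaling. C-Buffalo 2 stood apart: its factor by the trimmed mean of M values (TMM), which sets the scale of each library, was 0.688 for host genes against 0.985 to 1.13 in the other 5 libraries. For circRNAs the factor was 0.467 against 1.09 to 1.25. Over all host genes with at least 20 reads in it, the most-read circRNA of a gene held a median of 92.5% of that gene's reads in C-Buffalo 2 and 61.8% to 66.7% in the others. Fold changes of host genes that move by over 1.5 times without that library are therefore given both ways. Circles from T cell marker genes summed to 2199 to 4389 CPM in C-Buffalo and 1582 to 2634 in P-Buffalo, those from B cell genes to 252 to 586 and 257 to 512, and those from erythroid genes to 616 to 3443 and 759 to 2593. The platelet list, with 7 of 9 genes read, was at 802 to 1857 CPM in C-Buffalo and 258 to 593 in P-Buffalo, and its part in the results was not tested. Of 6 monocyte markers, only CSF1R was read (0 to 8.47 and 0 to 6.31 CPM), and CD14 and LYZ had no circle in the table.

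The 252 circRNAs took 12267 of 6206815 reads. Their share of a library was lowest in C-Buffalo 1, at 0.153% (95% exact binomial interval 0.145% to 0.161%), and highest in P-Buffalo 1, at 0.231% (0.222% to 0.241%). These intervals cover counting error only, since the reads carry no molecular identifiers. The share averaged 0.192% ± 0.0347 (SD, n = 3) in C-Buffalo and 0.207% ± 0.0363 (n = 3) in P-Buffalo, a difference smaller than the spread within either group. C-Buffalo 1 to 3 yielded 69, 45 and 119 of the circRNAs, and P-Buffalo 1 to 3 yielded 88, 114 and 71, so the groups overlapped here too.

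Reads were concentrated in few genes. ROCK1 had 1647 reads over the 6 libraries, SMAD3 1431, CREBBP 1247, RBL1 1087, TGFBR2 1068, LTBP1 1021, ACVR2A 974 and TGFBR1 943, while 17 of the 39 genes had fewer than 50. By role, nuclear partners and cofactors of SMADs held 22.9% of the reads, type II receptors 19.0%, receptor-regulated SMADs 14.6% and the SMAD-independent branch 14.2%. Type I receptors held 8.89%, the ligand-binding proteins LTBP1 and THBS1 9.59%, the SMAD anchors ZFYVE9 and ZFYVE16 4.56%, SMAD4 2.72% and the ligands 1.89%. ENG and the inhibitory SMAD6 held 0.579% and 0.481%.

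Of the 39 genes, 20 passed the filter on low counts and entered the comparison of P-Buffalo with C-Buffalo, and none passed an adjusted p under 0.05 with a fold change of at least 2 in edgeR's quasi-likelihood test. The same held for all 4137 host genes tested (0%), of which 227 had an unadjusted p under 0.05 at that fold, while DESeq2 called 7 host genes, none of them among the 39. At an unadjusted p under 0.05 and the same fold, ENG was higher and ROCK1 was lower in P-Buffalo. That is 2 of 20 genes, beside 5.49% of all host genes tested (0.967% higher and 4.52% lower). ENG is among the 39 because it was added by name, and among the 20 because its P-Buffalo reads alone passed the filter on low counts. Reads of ENG and ROCK1 circRNAs had been seen before the genes to be named were chosen, so this count is not evidence about the set. The log2 fold change was above 0 for 13 of the 20 genes, beside 50.5% of all host genes, and the median was 0.30, beside 0.01. With relative log expression (RLE) factors 11 of the 20 were above 0, with a median of 0.16 beside -0.13 over all host genes. With the library totals implied by the deposited normalised values 16 of 22 were, with a median of 0.37 beside 0.16, so the whole table moved with the scaling. For a single gene, an exact permutation test of 3 against 3 animals cannot give a p below 0.1. On the TMM-scaled level ENG was higher without overlap between the groups, as were 7.06% of host genes. LTBP1 was lower without overlap on that level, as were 4.47%, but not on unscaled library totals.

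**Figure D1:**
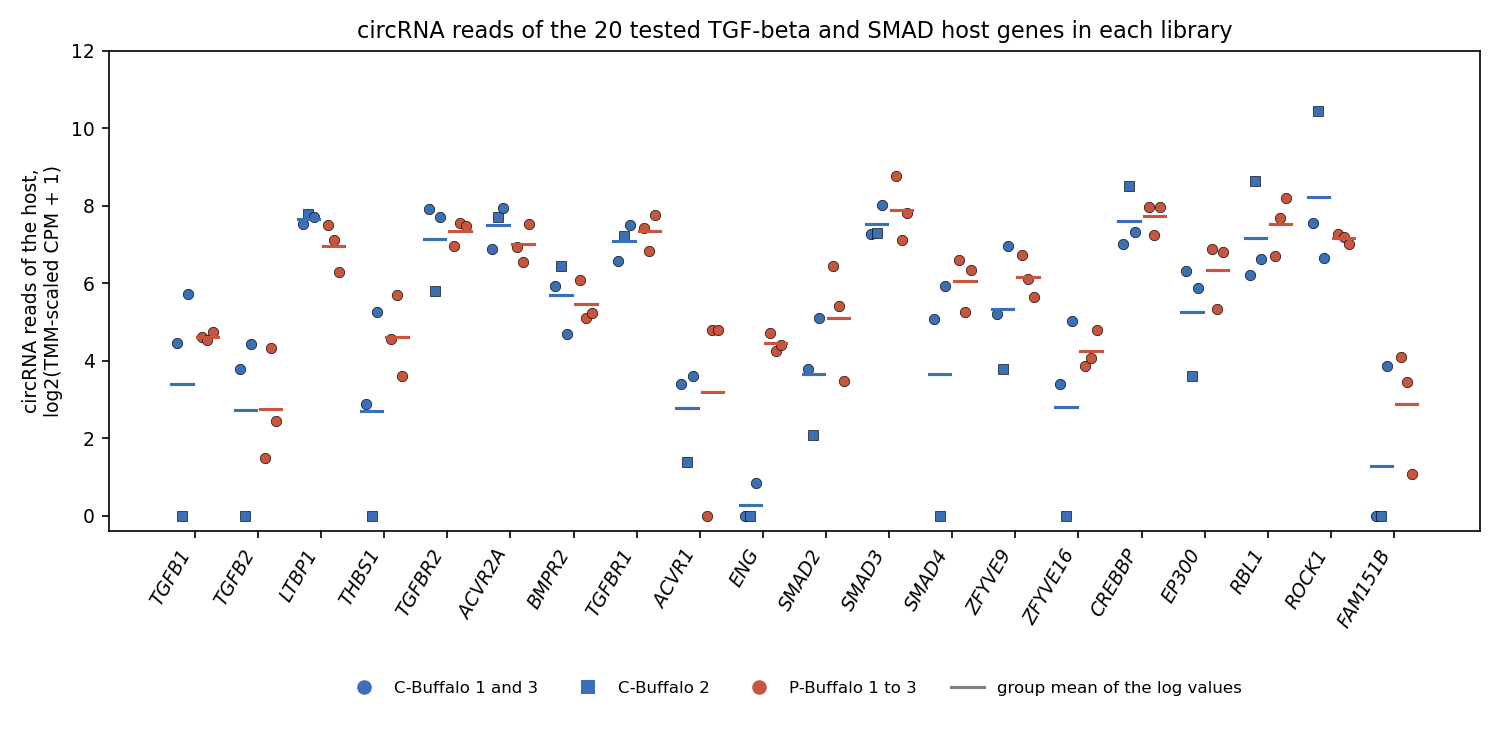
Back-splice reads of the 20 tested TGF-beta and SMAD host genes in each library, as log2 of the TMM-scaled CPM plus 1 (y axis), with 1 point per library, squares for C-Buffalo 2 and bars for the group means of these log values. ENG is at 0 to 0.79 CPM in C-Buffalo and 18.2 to 25.2 CPM in P-Buffalo, and C-Buffalo 2 is the highest point of ROCK1, CREBBP, RBL1, LTBP1 and BMPR2 and at 0 for TGFB1, TGFB2, THBS1, SMAD4, ZFYVE16, ENG and FAM151B.

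The ligands were read at low levels. TGFB1, the main TGF-beta of blood, had 20, 0 and 65 reads in C-Buffalo 1 to 3 and 26, 29 and 23 in P-Buffalo. P-Buffalo lay close together and inside the range of C-Buffalo (log2 fold change -0.05, SE 1.24, and -0.61 without C-Buffalo 2). Its leading circles shared their first end: circRNA7566, of 4 exons, had 95 reads and circRNA7565, of 5 exons, had 57. TGFB2 had 12, 0 and 26 reads against 2, 25 and 4, again overlapping (log2 fold change -0.41, SE 1.54, and -0.97 without C-Buffalo 2). Other ligand genes are not among the 39.

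LTBP1 encodes the protein that tethers latent TGF-beta to the matrix, and it gave more circles than any other of the 39 genes: 30, of which 27 exonic. Counts were 174, 136 and 260 in C-Buffalo 1 to 3 and 201, 181 and 69 in P-Buffalo 1 to 3. On the scaled level C-Buffalo stood at 203 ± 17.3 CPM (SD, n = 3) and P-Buffalo at 132 ± 52.3 CPM (n = 3). Every C-Buffalo library was above every P-Buffalo library on that level, but the nearest pair, C-Buffalo 1 at 184 CPM and P-Buffalo 1 at 181 CPM, almost touched. The separation rested on the TMM factors. On unscaled library totals the groups overlapped: C-Buffalo 2, with 136 of 931921 reads, was below P-Buffalo 1, with 201 of 1037998. The log2 fold change of LTBP1 was -0.62 (SE 0.66) with an adjusted p (edgeR's quasi-likelihood test) of 0.984, and it ranged from -0.90 to -0.35 as single libraries were left out. The circles behind it did not move as a block. The 2-exon circRNA636 had 49, 112 and 63 reads in C-Buffalo and 71, 42 and 5 in P-Buffalo. By contrast, the 6-exon circRNA638 had 39, 10 and 89 and then 76, 68 and 29. In all, 6 LTBP1 circles, with 380 reads, had the same last end as circRNA638. ciRNA1685, an intronic circle of LTBP1, had 31 reads, all in C-Buffalo 1. The platelet marker list was also lower in every P-Buffalo library than in every C-Buffalo library, and any link with LTBP1 was not tested.

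THBS1, encoding thrombospondin-1, which can free TGF-beta from its latent form, had 6, 0 and 47 reads in C-Buffalo 1 to 3 and 25, 67 and 10 in P-Buffalo 1 to 3. Those reads were spread over 18 circles, the largest of which, circRNA6195, held 20.6%. The groups overlapped (log2 fold change 0.92, SE 1.32, and 0.36 without C-Buffalo 2).

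All 3 type II receptor genes had a log2 fold change below 0 with TMM factors, which turned above 0 for TGFBR2 and BMPR2 with the library totals implied by the deposited normalised values and for BMPR2 without C-Buffalo 2, and none differed beyond the replicate spread. TGFBR2, the type II receptor of TGF-beta itself, had 226, 34 and 263 reads in C-Buffalo 1 to 3 and 137, 248 and 160 in P-Buffalo 1 to 3. The means were 168 ± 99.1 CPM and 164 ± 35.0 CPM (SD, n = 3 each), with a log2 fold change of -0.04 (SE 0.70). C-Buffalo 1 and 3, at 239 and 209 CPM, were above every P-Buffalo library (123 to 188 CPM), C-Buffalo 2, at 54.6 CPM, was below them all, and without it the log2 fold change was -0.44. One 2-exon circle, circRNA4917, carried 933 of the 1068 TGFBR2 reads and was read in all 6 libraries.

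ACVR2A, a type II receptor for activins, had 110, 129 and 311 reads in C-Buffalo 1 to 3 and 136, 122 and 166 in P-Buffalo 1 to 3. C-Buffalo 3 was the highest and the groups overlapped (log2 fold change -0.51, SE 0.68). Its circles circRNA8104, of 2 exons and 711 reads, and circRNA8105, of 3 exons and 186 reads, had the same last end, and both were found in every library. The intronic ciRNA1726 had 7, 0 and 0 reads in C-Buffalo and 22, 18 and 18 in P-Buffalo, without overlap. It passed the filter on low counts through its P-Buffalo reads alone. Its log2 fold change was 2.74 (SE 1.73), with an adjusted p (edgeR's quasi-likelihood test) of 0.983. BMPR2, the type II receptor of bone morphogenetic proteins, had 57, 54 and 31 reads and then 74, 44 and 33 (log2 fold change -0.32, SE 0.94, and 0.13 without C-Buffalo 2), and it was one of the few genes with a sizeable intronic part, 86 of its 293 reads.

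Among type I receptors only TGFBR1 was read deeply. It had 89, 93 and 226 reads in C-Buffalo 1 to 3 and 191, 149 and 195 in P-Buffalo 1 to 3, at 141 ± 43.3 and 168 ± 52.5 CPM (SD, n = 3 each). The groups overlapped and the log2 fold change was 0.25 (SE 0.68). Circles of TGFBR1 with 1, 2 and 3 exons opened at one first end, and those 3 held 853 of its 936 exonic reads. The 2-exon form, circRNA2718, led in each library with 78, 84 and 170 reads in C-Buffalo and 139, 125 and 167 in P-Buffalo. One circle assigned to TGFBR1, the intronic ciRNA4111 with 7 reads in C-Buffalo 3, lay on the other strand, and it was the single such case among the 252.

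ACVR1, a receptor of bone morphogenetic proteins and activin, had 9, 1 and 14 reads in C-Buffalo 1 to 3 and 0, 35 and 24 in P-Buffalo 1 to 3. P-Buffalo 1 was at 0 and P-Buffalo 2 and 3 were above all C-Buffalo, so the groups overlapped (log2 fold change 1.22, SE 1.51, and 0.78 without C-Buffalo 2). ACVR1B, a type I receptor of activin, went the other way in counts, with 19, 1 and 23 reads against 7, 0 and 0, and was not tested. BMPR1B had 0, 0 and 6 reads and then 3, 5 and 0, and BMPR1A had 1 read, in C-Buffalo 3. Neither was tested.

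ENG, whose product endoglin helps type II and type I receptors bind TGF-beta and is best known from endothelium, had 0, 0 and 1 reads in C-Buffalo 1 to 3 and 28, 24 and 18 in P-Buffalo 1 to 3. Its scaled level was 0.265 ± 0.459 CPM in C-Buffalo and 21.2 ± 3.63 CPM in P-Buffalo (SD, n = 3 each), so the groups were far apart and P-Buffalo were close to each other. The ratio of reads pooled over the 3 animals of each group was 67.8 (95% exact binomial interval 11.8 to 2716). This interval covers counting error only and not the spread between animals. In edgeR's quasi-likelihood test the log2 fold change was 5.57 (SE 1.78), with an unadjusted p of 0.00573 and an adjusted p of 0.844, and without C-Buffalo 2 it was 5.29. ENG passed the filter on low counts through its P-Buffalo reads alone. Its p and its lack of overlap thus belong to a gene kept through the group where it was high, and they are not independent evidence.

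ENG reads came from 3 circles. The 5-exon circRNA31638 (NC_037556.1, 98037068 to 98039810, minus strand, in the buffalo assembly ASM312139v1) had 19, 12 and 13 reads in P-Buffalo and none in C-Buffalo, at least 14.2-fold higher against a floor of 3 reads over the group and at least 9.87-fold higher without C-Buffalo 2. The 4-exon circRNA20891, which has the same last end, had 1 read in C-Buffalo 3 and 9, 9 and 5 in P-Buffalo, and circRNA38794 had 3 reads in P-Buffalo 2. Presence in every library of P-Buffalo and none of C-Buffalo was met by 2 of the 252 circRNAs, circRNA31638 and circRNA36340 of RBL1, or 0.794%, beside 0.750% of all circRNAs. Of the fibroblast and endothelial markers, only VWF had circles, at 3.21 to 14.3 CPM in C-Buffalo and 10.8 to 12.2 CPM in P-Buffalo, and PECAM1, CDH5 and KDR had none in the table.

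**Figure D2:**
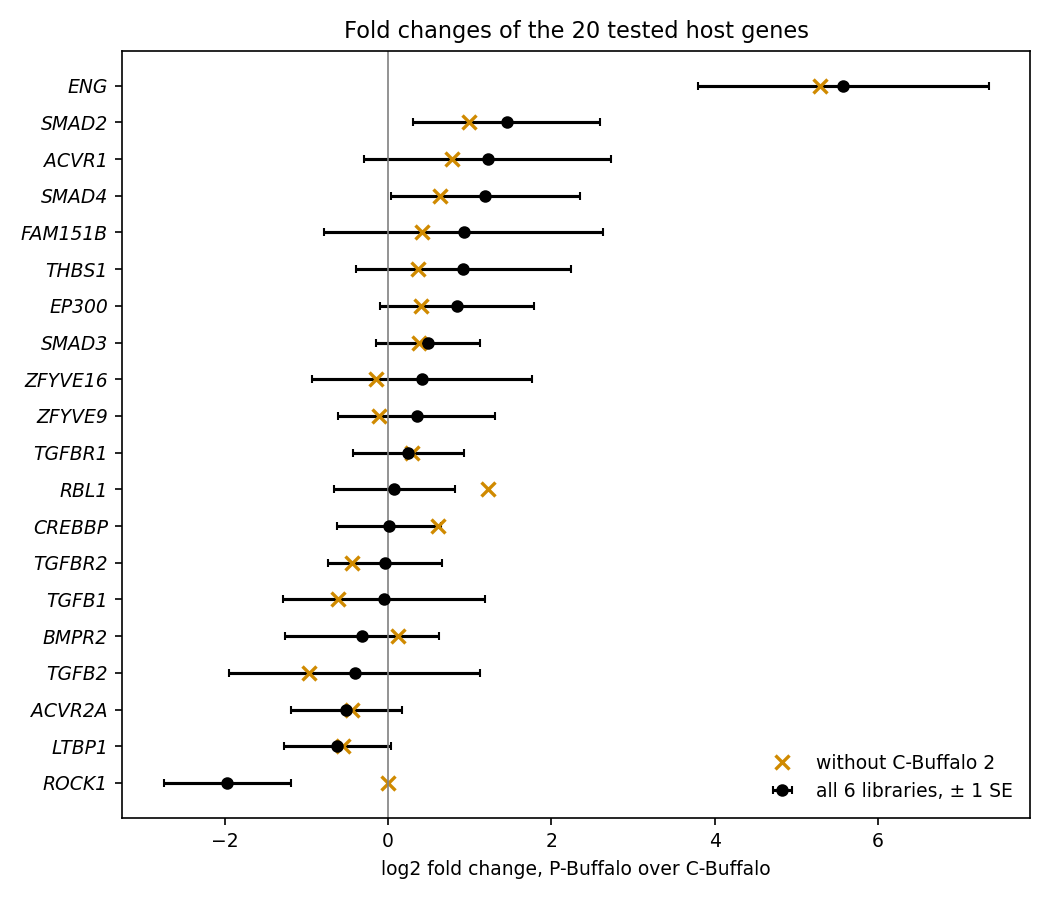
log2 fold change of P-Buffalo over C-Buffalo (x axis) for the 20 tested host genes, with 1 SE, derived from the F statistic of the test, as bars and crosses for the fit without C-Buffalo 2. ENG stands at 5.57 with a cross at 5.29, while ROCK1 moves from -1.97 to 0.00 and RBL1 from 0.07 to 1.23.

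The receptor-regulated SMADs carry the signal from the receptor to the nucleus, SMAD2 and SMAD3 for TGF-beta and activin, and SMAD1, SMAD5 and SMAD9 for bone morphogenetic proteins. SMAD3 had 146, 98 and 323 reads in C-Buffalo 1 to 3 and 480, 183 and 201 in P-Buffalo 1 to 3. P-Buffalo 1 was the highest library, C-Buffalo 3 exceeded the other 2 P-Buffalo in counts, and the groups overlapped at 189.6 ± 58.2 and 265 ± 151 CPM (SD, n = 3 each). The log2 fold change was 0.48 (SE 0.64), and it was -0.05 without P-Buffalo 1.

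Almost all SMAD3 reads fell on one junction that the table lists as a pair of circRNAs. circRNA24383 (NC_037555.1, 88652922 to 88658116, minus strand) and circRNA12473 (88652923 to 88658116) each cover 4 exons and differ by 1 base pair at the lower coordinate. Each was assigned to a different transcript model of SMAD3. circRNA24383 had 0, 0 and 311 reads in C-Buffalo 1 to 3 and 480, 174 and 193 in P-Buffalo 1 to 3, whereas circRNA12473 had 128, 97 and 0 reads and then 0, 0 and 0. No library had reads of both. Taken alone and in pooled reads, circRNA12473 was at least 77.4-fold lower in P-Buffalo, and at least 63.4-fold lower without C-Buffalo 2. These bounds set a floor of 3 reads over the group and leave out the spread between animals. It failed the filter on low counts, and it was the only one of the 252 circRNAs with an adjusted p under 0.05 in any of the alternatives, 0.00144 in edgeR's quasi-likelihood test without the filter and 0.0366 in DESeq2. Summed over both entries, the junction had 128, 97 and 311 reads in C-Buffalo and 480, 174 and 193 in P-Buffalo. The groups then overlapped, with a log2 fold change of 0.34 and an adjusted p (edgeR's quasi-likelihood test) of 0.956. circRNA12473 was singled out after its values were seen.

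The pattern was not limited to SMAD3. Among the 252 circRNAs, 17 pairs (34 circRNAs of 9 host genes) had both ends within 1 base pair, 16 of them shifted at the lower coordinate and 15 assigned to different transcript models. In 56 cases a library had reads of a pair, and in 1 case it had reads of both entries (1.79%, beside 1.34% of 16541 cases over all circRNAs). For 8 of the 17 pairs one entry was read in P-Buffalo only and the other in C-Buffalo only (47.1%, beside 21.1% of 4183 pairs over all circRNAs). Most of these were sparse. The divided pairs of ZFYVE9, SMAD3 and CREBBP, and circRNA11754 with circRNA44894 of RBL1, had 7 to 17 reads each in 2 libraries. Such a pair is divided whenever its libraries fall in different groups. RBL1 had 4 such close pairs, SMAD4 and ZFYVE9 3 each and SMAD3 2. In RBL1, circRNA36340 had 11, 12 and 16 reads in P-Buffalo and none in C-Buffalo, while circRNA29722, 1 base pair away, had 14 reads in C-Buffalo 3 only. In SMAD9, circRNA6708 had 82 reads in C-Buffalo 1 and 20 in P-Buffalo 2, and circRNA31041 had 11 in C-Buffalo 3.

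**Figure D3:**
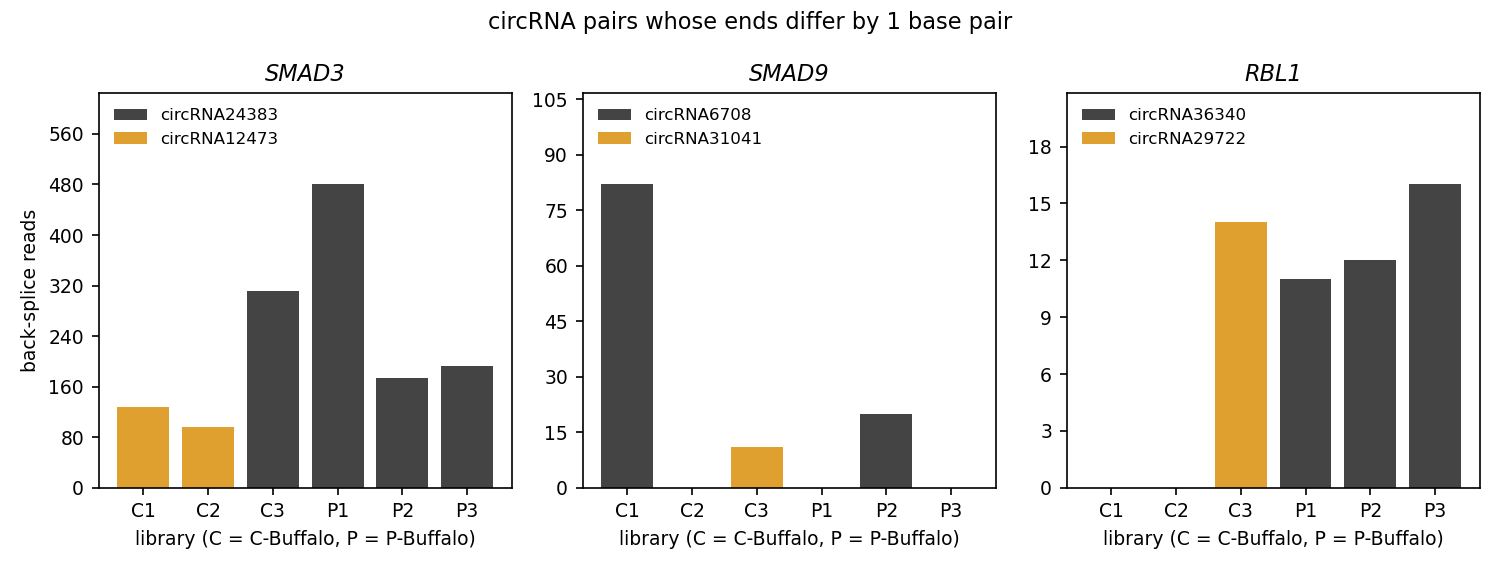
Back-splice reads per library (y axis) of a pair of circRNAs 1 base pair apart in SMAD3, SMAD9 and RBL1, stacked by entry, with C for C-Buffalo and P for P-Buffalo. Each bar has 1 colour: the entries of a pair never occur together, and in SMAD3 circRNA12473 fills C-Buffalo 1 and 2 (128 and 97 reads) and circRNA24383 the other 4 libraries (174 to 480 reads).

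SMAD2 had 12, 2 and 42 reads in C-Buffalo 1 to 3 and 95, 55 and 9 in P-Buffalo 1 to 3. P-Buffalo 1 was the highest and P-Buffalo 3 was within the C-Buffalo range (log2 fold change 1.45, SE 1.14; adjusted p 0.957 in edgeR's quasi-likelihood test). At one last end 3 of its circles met, with 147 of 215 reads, circRNA17961 with 87 reads among them. A further locus, LOC102402155, carries the annotation of a SMAD2 homolog and had 3 reads, in C-Buffalo 2. Whether reads were divided between it and SMAD2 was not tested.

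The SMADs of the bone morphogenetic protein arm were sparse. SMAD9 had 82, 0 and 11 reads in C-Buffalo 1 to 3 and 0, 20 and 0 in P-Buffalo 1 to 3, and its circles cover a single exon. SMAD5 had 0, 2 and 5 reads and then 17, 0 and 5, and SMAD1 had 6 reads, in P-Buffalo 1. The inhibitory SMAD6 had 1 circle, circRNA12201, with 9, 0 and 0 reads in C-Buffalo and 0, 38 and 12 in P-Buffalo. None of these 4 genes passed the filter, and in each the groups overlapped.

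SMAD4, the common partner of all receptor-regulated SMADs, had 31, 0 and 75 reads in C-Buffalo 1 to 3 and 107, 49 and 72 in P-Buffalo 1 to 3. The level was 30.8 ± 29.9 CPM in C-Buffalo and 71.4 ± 30.6 CPM in P-Buffalo (SD, n = 3 each), with C-Buffalo 3 inside the P-Buffalo range. The log2 fold change was 1.19 (SE 1.15), and 0.63 without C-Buffalo 2. Its 12 circles were assembled from few ends. At its last end 5 circRNAs (4 distinct junctions) met, with 204 of 334 reads, and 5 circRNAs met at its first end, with 96 reads. circRNA25945, the most-read one, had 0, 0 and 25 reads in C-Buffalo and 36, 32 and 56 in P-Buffalo, without overlap. That was seen for 3 of 32 tested circRNAs in the direction of P-Buffalo (8.16% of all circRNAs tested), the others being ciRNA1726 of ACVR2A and circRNA10114 of CREBBP. On the other side, circRNA8597 and circRNA12874 of SMAD4 were read in C-Buffalo only (29 and 28 reads), and each has a partner 1 base pair away that was read in P-Buffalo only.

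The SMAD anchor ZFYVE9, which brings SMAD2 and SMAD3 to the receptors, had 34, 8 and 157 reads in C-Buffalo 1 to 3 and 117, 90 and 44 in P-Buffalo 1 to 3, with overlap (log2 fold change 0.35, SE 0.96, and -0.11 without C-Buffalo 2). Its leading circle, circRNA2130, covers 9 exons, more than the leading circle of any other of the 39 genes, and 7 ZFYVE9 circRNAs opened at the same first end. ZFYVE16, a related endosomal protein, had 9, 0 and 40 reads and then 15, 21 and 24.

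CREBBP and EP300 encode histone acetyltransferases that SMADs recruit. CREBBP had 122, 225 and 199 reads in C-Buffalo 1 to 3 and 277, 199 and 225 in P-Buffalo 1 to 3, with means of 216 ± 126 and 217 ± 57.4 CPM (SD, n = 3 each). C-Buffalo 2 was the highest library of CREBBP, at 361 CPM, and the log2 fold change was 0.01 with it and 0.61 without it. circRNA10114, a single exon, and circRNA10115, 2 exons, open at the same first end, and with circRNA10116 they held 1011 of 1217 exonic reads. circRNA10114 had 66, 5 and 75 reads in C-Buffalo and 124, 100 and 86 in P-Buffalo, without overlap on the scaled level. Its log2 fold change was 1.00 (SE 0.92), and 0.54 without C-Buffalo 2, with an adjusted p (edgeR's quasi-likelihood test) of 0.983. circRNA10115 had 13, 217 and 69 reads and then 84, 56 and 91, and its fold change turned from -1.50 to 1.04 without C-Buffalo 2.

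**Figure D4:**
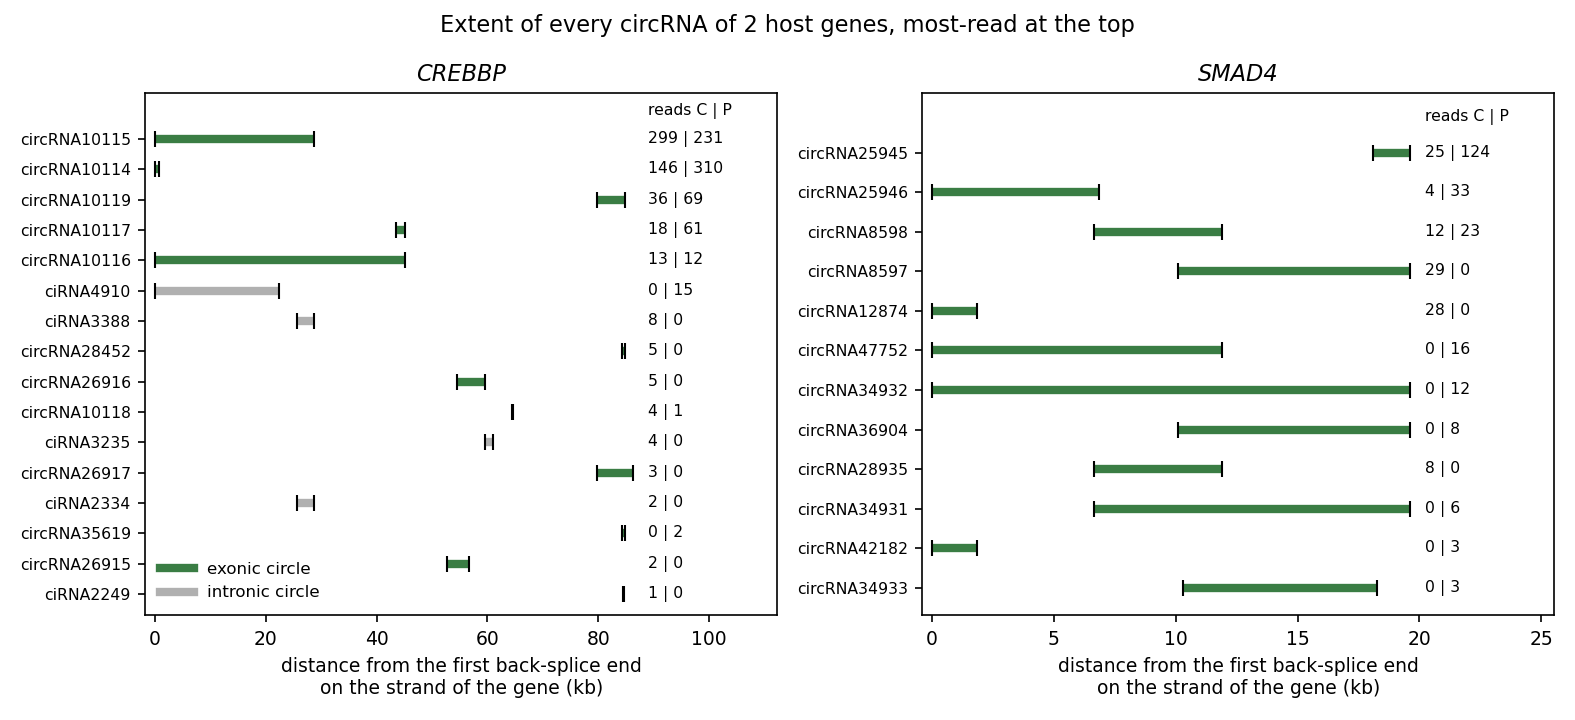
Extent of every circRNA of CREBBP (16) and SMAD4 (12) as distance in kb from the first back-splice end on the strand of the gene (x axis), most-read at the top, with summed reads in C-Buffalo and P-Buffalo at the right, green for exonic and grey for intronic circles. In CREBBP the leading circles start at one end, and in SMAD4 a small number of ends recur in different combinations.

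EP300 had 74, 7 and 73 reads in C-Buffalo 1 to 3 and 129, 52 and 100 in P-Buffalo 1 to 3, with overlap (log2 fold change 0.85, SE 0.94, and 0.40 without C-Buffalo 2). Within it, the 3-exon circRNA2975 had 23, 2 and 25 reads in C-Buffalo and 113, 20 and 93 in P-Buffalo, and the groups overlapped. Its log2 fold change was 2.13 (SE 1.04), and 1.71 without C-Buffalo 2, with an adjusted p (edgeR's quasi-likelihood test) of 0.983 over all 6 libraries. The single-exon circRNA2977 had 32, 4 and 23 reads and then 0, 13 and 0, lower in P-Buffalo without overlap on the scaled level, though C-Buffalo 2 at 9.19 CPM and P-Buffalo 2 at 9.15 CPM were nearly equal. That order came from the TMM factors. On unscaled library totals C-Buffalo 2, with 4 of 931921 reads, was below P-Buffalo 2, with 13 of 1298753, and the groups overlapped. On the scaled level that direction was met by 1 of the 32 tested circRNAs, beside 3.87% of all.

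RBL1 encodes a retinoblastoma-like protein, which works with SMAD3 and E2F4 in repressing MYC. It had 69, 249 and 124 reads in C-Buffalo 1 to 3 and 114, 268 and 263 in P-Buffalo 1 to 3, with overlap at 190.5 ± 182 and 200.1 ± 95.6 CPM (SD, n = 3 each). The log2 fold change of RBL1 was 0.07 (SE 0.74). Without C-Buffalo 2 it was 1.23, with an unadjusted p of 0.0459 and an adjusted p (edgeR's quasi-likelihood test) of 0.949, in a fit where 4.47% of host genes had an unadjusted p under 0.05 at that fold. In C-Buffalo 2, the 3-exon circRNA11752 held 235 of 249 RBL1 reads. Some smaller RBL1 circles, picked after their values were seen, were read mainly in P-Buffalo. circRNA44895 had 37 and 8 reads in P-Buffalo 2 and 3. circRNA18859 had 3 reads in C-Buffalo 2 and 43 and 20 in P-Buffalo 2 and 3. Its partner 1 base pair away, circRNA29721, had 5 reads in C-Buffalo 3 and 10 in P-Buffalo 1. Other RBL1 circles, such as circRNA29722 and circRNA11754, were read in C-Buffalo only. Among the 252 circRNAs, 34.9% were seen only in P-Buffalo and 30.6% only in C-Buffalo, beside 37.9% and 25.7% over the whole table. The other cell cycle partners were near the floor, with E2F4 at 9 and 4 reads in P-Buffalo 2 and 3, E2F5 at 9 in P-Buffalo 2, TFDP1 at 5 in P-Buffalo 1 and SP1 at 10 and 7 in P-Buffalo 1 and 2. None of these 4 was read in C-Buffalo. TGIF1, a SMAD co-repressor, had 1 read, in C-Buffalo 2.

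ROCK1, a kinase downstream of RHOA that acts on the cytoskeleton, had 178, 867 and 125 reads in C-Buffalo 1 to 3 and 171, 191 and 115 in P-Buffalo 1 to 3. C-Buffalo 2 alone was high, and the other 5 libraries lay between 115 and 191. The mean was 559.9 ± 722 CPM in C-Buffalo and 143 ± 13.0 CPM in P-Buffalo (SD, n = 3 each). The log2 fold change of ROCK1 was -1.97 (SE 0.78), with an unadjusted p of 0.0211 and an adjusted p (edgeR's quasi-likelihood test) of 0.844. Without C-Buffalo 2 it was 0.00.

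One 2-exon circle made this difference. circRNA8686 (NC_037566.1, 27113992 to 27114753, minus strand) held 858 of the 867 ROCK1 reads of C-Buffalo 2, or 99.0% (95% exact binomial interval 98.0% to 99.5%). It had 123 and 79 reads in C-Buffalo 1 and 3 and 102, 90 and 25 in P-Buffalo. At the level of single circRNAs it was the only one of 32 tested with an unadjusted p under 0.05 (log2 fold change -3.64, SE 1.36, p 0.0251, adjusted p 0.983 in edgeR's quasi-likelihood test), beside 3.89% of all circRNAs tested (2.46% lower and 1.43% higher). Without C-Buffalo 2 the log2 fold change of circRNA8686 was -0.60, with an unadjusted p (edgeR's quasi-likelihood test) of 0.421. circRNA8685, of 4 exons, had 51, 7 and 38 reads and then 48, 82 and 70, and was the most-read ROCK1 circle in P-Buffalo 3. RHOA itself and the phosphatase subunits PPP2CA, PPP2R1A and PPP2R1B had 15 to 48 reads each and were not tested, and both RHOA circles were intronic.

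C-Buffalo 2 was also unlike the others in how far one circle led. Among the 12 most-read genes, the median share of the leading circle was 92.6% in C-Buffalo 2 (11 genes read) and 51.6% to 72.0% in the other 5 libraries. CREBBP reached 96.4% (95% exact binomial interval 93.1% to 98.5%) and RBL1 94.4% (90.7% to 96.9%) in that library. ACVR2A was an exception, with 57.4%, the lowest of the 6 libraries for that gene, ZFYVE9 and EP300, with 8 and 7 reads, were within the range of the others, and SMAD3, at 99.0%, was below P-Buffalo 1, at 100%.

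**Figure D5:**
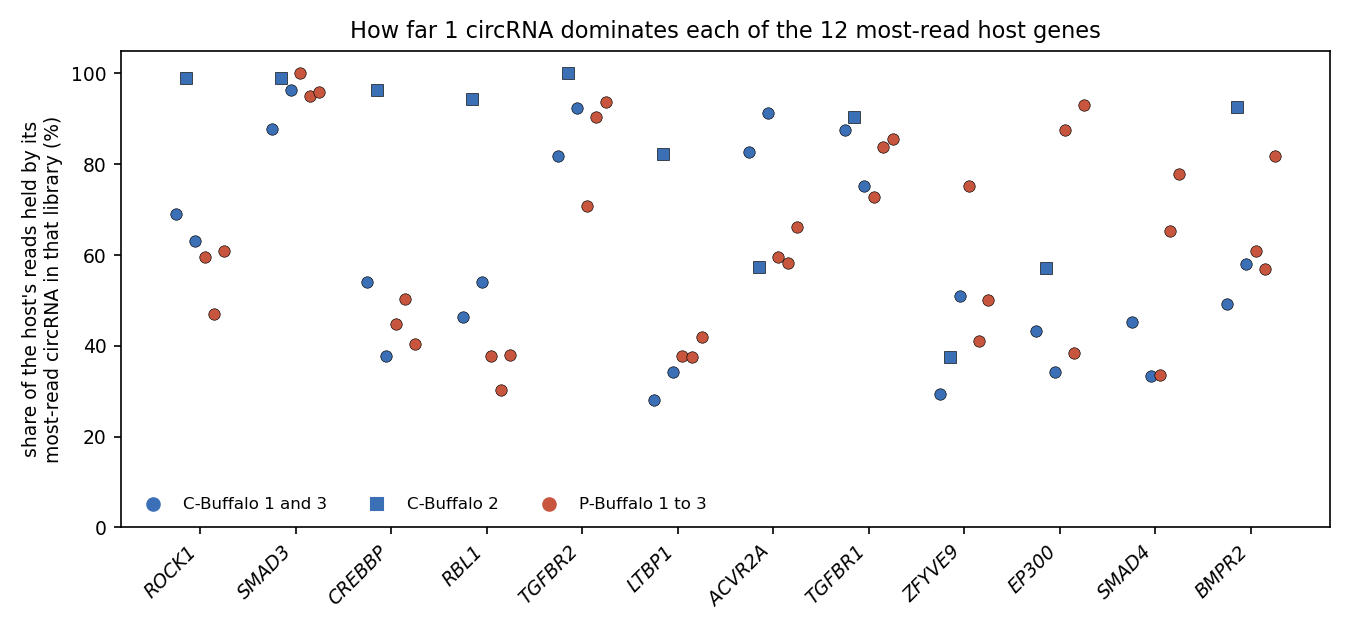
Share of a host gene's reads held by its most-read circRNA in that library (y axis, percent) for the 12 most-read genes, with squares for C-Buffalo 2. The squares stand at 94.4% to 99.0% for ROCK1, CREBBP and RBL1, above all other libraries of those genes, but at 57.4% for ACVR2A.

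Exonic circles made up 88.5% of the 252 circRNAs, beside 82.2% of all circRNAs, and the median was 4 circles per host gene, beside 3. Of the exonic ones, 54.3% had 2 or 3 exons, beside 54.1%, and 11.7% a single exon, beside 6.82%. The largest count of exons was 16, in RBL1. Only 17 of the 252 (6.75%) were read in all 6 libraries, beside 7.96% of all circRNAs, and these 17 held 59.4% of the reads, beside 77.0%, whereas 146 (57.9%) were read in 1 library, beside 56.5%. Of the 223 exonic circles, 75.3% shared an end within 1 base pair with a different circle of the same gene, beside 78.3% of all exonic circles, and those held 71.4% of the exonic reads, beside 92.8%. No test was run on these shares.

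For 4 of the 39 genes the role lists used here hold no entry. Their place in the set rests on the deposited KEGG annotation alone, and FAM151B is 1 of the 20 tested genes and of the 13 above 0. FAM151B, with 0, 0 and 17 reads in C-Buffalo and 18, 13 and 1 in P-Buffalo, lies next to ZFYVE16 in the RefSeq gene order of the buffalo, and ANKFN1, with 3 reads, lies next to NOG, the gene of the bone morphogenetic protein antagonist noggin. PTPRCAP had 1 read.

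Of 63 further genes of TGF-beta signaling that the rule does not reach, 49 had a circRNA and 26 were tested. Of these, 13 had a fold change above 0 and 13 below, and none was called at the adjusted threshold by edgeR. In that test 2 of the 26 had an unadjusted p under 0.05 at a fold of at least 2, both higher in P-Buffalo. Over all host genes tested the share was 5.49% (0.967% higher and 4.52% lower). The genes so called were USP9X, a deubiquitinase that acts on SMAD4, and AXIN1, a scaffold protein. USP9X had 73, 29 and 78 reads in C-Buffalo 1 to 3 and 100, 809 and 121 in P-Buffalo 1 to 3, so P-Buffalo 2 set most of its fold change.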

How the data were processed

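Circular RNA was measured in venous blood of 6 buffaloes, 3 per group. The deposited table holds, for each circRNA and library, the authors' count of back-splice reads and a normalised signal, SRPBM, which is that count divided by 1 constant per library. According to the paper's methods, reads were trimmed with Cutadapt, mapped with Bowtie2 and Tophat2, and circles called with CIRCExplorer and CIRI on ASM312139v1; HISAT2, fastp, StringTie, edgeR and GRCh38.p10 appear in the submitters' processing notes, and no source used here says which of them made the table. The counts were used as deposited. They were summed per host gene, and 2353 intergenic circRNAs (2.79% of reads) stayed out of the host fits.

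Counts were tested with edgeR 4.0.16 (R 4.3.3; filterByExpr, TMM factors, glmQLFit and glmQLFTest) over all host genes and over all circRNAs, with Benjamini-Hochberg adjustment, and only the TGF-beta and SMAD rows are printed. A call needed an adjusted p under 0.05 and a log2 fold change of at least 1 in size; edgeR was used in place of the t-test that the study names because the values are counts. Scaled levels are CPM over the TMM-scaled library totals. The SE of an edgeR fold change is the size of the log2 fold change divided by the square root of the F statistic of the test. It is an approximation, least reliable where a group is near 0 reads. Alternatives were DESeq2 1.42.0, limma 3.58.1 on log2(SRPBM + 1) and log2(SRPBM + 0.1), other scalings and filters, a replicate block, and leaving out each library; merging circRNAs within 1 base pair was applied to single fold changes after seeing the data. The scripts were tested on simulated counts with 200 changed features.

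Values in every library are printed for the 12 most-read genes, for tested genes with an unadjusted p under 0.05, for tested genes whose groups do not overlap at a fold of 2 or more, for SMAD and receptor genes and for their leading circles; others were added after their values were seen. The members, the role lists and the list of other pathway genes were chosen with earlier results of these data known. Neighbouring genes come from the RefSeq gene table of another buffalo assembly, in which 36 of the 39 symbols matched. No genome of the files' build was used here, so no junction sequence is printed.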

Additional observations from a re-analysis of the deposited data

How the results depend on the processing

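The absence of TGF-beta and SMAD host genes at an adjusted p under 0.05 held in all 14 alternatives run for host genes, and the circRNAs had none except 1 (circRNA12473) without the filter on low counts and 1 (the same) in DESeq2. Over the whole table, where none was called, dropping the filter gave 86 host genes and 600 circRNAs and DESeq2 gave 7 and 159. Counts at an unadjusted p under 0.05 moved. From 2 host genes the count fell to 1 with the library totals implied by the SRPBM values, with a filter at a mean count of 20, in limma on log2(SRPBM + 1) and on log2(SRPBM + 0.1), and with the replicate number as a block, and it was 2 to 3 with a library left out. The share of all host genes tested was 1.99%, 5.36%, 2.9%, 3.02% and 2.39% in those settings, in that order. With a library left out it was 3.2% to 11.2%. From 1 of 32 circRNAs it rose to 3 of 34 with the SRPBM totals, 7 of 252 without the filter, 2 of 18 at a mean count of 20, 3 of 252 in DESeq2, and 2 and 3 of 32 in limma with the larger and the smaller pseudocount. The share of all circRNAs tested was 3.89% at first. It was 1.98%, 3.7%, 3.62%, 1.57%, 4.41% and 4.37% in these alternatives, in that order. The count was 1 to 6 with a library left out: 4 of 39 without C-Buffalo 1 (7.43% of all circRNAs tested), 3 of 43 without C-Buffalo 2 (4.34%), 6 of 39 without C-Buffalo 3 (9.14%) and 4 of 38 without P-Buffalo 2 (5.15%). The replicate numbers do not pair the animals (r of same-numbered deviations over host genes -0.15, -0.07 and -0.02), and with the block 1 circRNA, circRNA25945, had an unadjusted p under 0.05, beside 1.79% of all circRNAs tested.

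Of 29 named fold changes, 16 kept their direction in every alternative run, and 52 of 416 alternative values turned. CREBBP, at 0.01, and RBL1, at 0.07, were -0.36 and -0.39 with RLE factors, -0.079 and -0.037 without the filter, and -0.38 and -0.41 in DESeq2. TGFBR2, at -0.04, was 0.00058 with the SRPBM totals, 0.39 and 0.44 in limma with pseudocounts of 1 and 0.1, and 0.16 with the block. BMPR2, at -0.32, was 0.045 with the SRPBM totals and 0.022 and 0.023 in limma. Among circRNAs in limma with the same pseudocounts, circRNA10115 was 0.25 and 0.33, circRNA11752 0.047 and 0.093, circRNA4917 0.29 and 0.33, circRNA2718 0.41 and 0.42, circRNA8247 0.21 and 0.28, and circRNA8081 -0.12 with the smaller one. circRNA10115 and circRNA11752 were 0.19 and 0.012 with the block, circRNA2718 and circRNA8247 0.35 and 0.10 with the SRPBM totals, and circRNA2718 0.24 at a mean count of 20. The cause of these turns was not tested. With a library left out, the ranges were -2.48 to 0.0031 for ROCK1, -0.055 to 0.78 for SMAD3, -0.27 to 0.61 for CREBBP, -0.33 to 1.23 for RBL1, -0.44 to 0.32 for TGFBR2, -0.11 to 1.59 for ZFYVE9 and -0.70 to 0.13 for BMPR2. They were -2.10 to 1.04 for circRNA10115, -2.56 to 1.38 for circRNA11752, -0.46 to 0.091 for circRNA4917, -0.39 to 0.29 for circRNA2718, -1.41 to 0.65 for circRNA8247 and -0.26 to 1.11 for circRNA8081. The median of all host genes was 0.01 with TMM, -0.13 with RLE and 0.16 with the SRPBM totals. With the MAP genes and the ubiquitin pathway kept in, the read shares rose to 0.243% in C-Buffalo and 0.285% in P-Buffalo. At a minimum of 5 reads per library, P-Buffalo had a mean of 67.3 circRNAs in place of 91.0.

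At this depth and size little is detectable after adjustment: in simulated host counts, 28.8% of 8-fold changes passed an adjusted p under 0.05 and 74.6% an unadjusted one, and in simulated circRNA counts 0% and 72.9%. A gene not called here is therefore not shown to be equal between the groups.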
